A study of Mus musculus with 32 samples.

Results

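The cytosolic ribosomal protein genes were taken as all probe sets whose single gene symbol in the platform annotation begins with Rpl or Rps and a digit, or is Rplp0, Rplp1, Rplp2 or Rpsa. Kinases named Rps6k and pseudogene symbols ending in -ps were left out. The rule gave 49 probe sets for 35 genes, 18 of the small subunit and 17 of the large subunit, among 12422 probe sets on the array that are not controls. Another 39 probe sets that list a ribosomal protein symbol beside other symbols were left out. Rplp1 and Rplp2, the small acidic proteins of the stalk, had no probe set of their own under the rule.

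The samples were hippocampi of untreated mice of 8 inbred strains, C57BL/6J, DBA/2J, A/J, SJL/J, FVB/NJ, C3H/HeJ, BALB/cByJ and _129S1/SvImJ_. No strain served as a control, and the labels give no age or sex. RNA of 6 mice was combined into 1 pool per strain, 1 cDNA was made from each pool, and cRNA was made from that cDNA in 2 preparations. Each preparation was hybridised to 2 Affymetrix U74Av2 arrays, so each strain has 4 arrays. Arrays 1 and 2 carry preparation 1 and arrays 3 and 4 carry preparation 2. Errors are therefore the SD over 2 preparations of 1 pool, and they hold nothing of the differences between animals of a strain.

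A cytosolic ribosome carries a small subunit, which reads the mRNA, and a large subunit, which joins the amino acids. Nearly every ribosomal protein is present in a single copy in each ribosome, and its mRNA is among the most abundant in any cell. These mRNAs begin with a tract of pyrimidines, the 5′ TOP tract, through which mTOR signalling sets their translation as a group. A few members have a paralogue elsewhere in the genome. Rps4x, on the X chromosome, encodes the S4 protein of the small subunit, and Rps4l is a related sequence that the RefSeq table of the mouse assembly GRCm38.p6 classes as a transcribed pseudogene.

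Values are log2 of the deposited intensity, so a difference of 1 is 2-fold. The sequences under the probes were not compared between the strains. Differences given here are therefore in signal, and whether they are differences in RNA amount was not tested. The median deposited signal was 29.4 to 43.7 per array, and no 2 arrays held identical values. All 6 hippocampal markers were on the array and were tested, with mean log2 signals from 5.27 for Prox1 to 8.71 for Neurod2. BALB/cByJ stood apart over all genes, with 8.92% of tested probe sets differing from the rest against 0.389 to 2.28% in the other 7 strains. Arrays 3 and 4 of BALB/cByJ carry days in their titles that no array of another strain shares, except array 4 of FVB/NJ. Array 2 of FVB/NJ carries a day that it shares with second-preparation arrays of other strains.

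Of the 49 probe sets, 33 passed the filter on low signal and were tested, for 14 genes of the small and 12 of the large subunit. The other 16 had mean log2 signals of 1.76 to 4.17, and they held every probe set of Rpl32, Rpl35a, Rpl38, Rpl39, Rpl39l, Rps14, Rps15, Rps20 and Rps27l beside weaker probe sets of Rpl7, Rps29, Rps4l and Rps4x. Among the tested probe sets, mean log2 signals ran from 4.44 to 12.76. The moderated F-test of limma across the 8 strains called 3 of the 33 (9.09%), against 4.58% of all 7453 probe sets tested. They were Rps4l, Rpl13a and 1 of the Rps28 probe sets. The remaining 30 had adjusted p from 0.069 to 0.98. With the preparation as a block, 8 of 33 (24.2%) were called against 18.9% of all, the 5 further probe sets being a second one of Rps28 and those of Rps3a1, Rps27, Rpl6 and Rps18. Without the block, 1 was called when preparation 1 of BALB/cByJ, preparation 1 of DBA/2J or either preparation of FVB/NJ was left out, and 5 without preparation 2 of C3H/HeJ. In pooled tissue, fewer cells of a type and less RNA per cell cannot be told apart.

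Rps4l had the widest range of the tested members. Its probe set 98149_s_at, whose suffix marks probes that can read more than 1 transcript, gave log2 signals of 4.91, 5.28, 5.18 and 5.67 on arrays 1 to 4 of A/J. In C57BL/6J the 4 arrays gave 7.29, 7.88, 7.78 and 7.68. The highest A/J array thus lay below every array of the other 7 strains, and the lowest C57BL/6J array lay above every array of the others. The 4 arrays gave 7.16, 6.62, 7.09 and 7.14 in _129S1/SvImJ_. They gave 7.15, 6.89, 6.80 and 7.14 in C3H/HeJ. These strains stood next to C57BL/6J in the order and overlapped each other. In DBA/2J the arrays gave 6.71, 6.21, 6.77 and 6.86. In SJL/J they gave 6.36, 6.23, 7.07 and 6.74. Both of these spread over more than the gap between their means. BALB/cByJ gave 7.05, 6.30, 6.25 and 6.61. FVB/NJ gave 6.21, 6.45, 6.54 and 6.25. BALB/cByJ and FVB/NJ overlapped DBA/2J and SJL/J.

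**Figure D1:**
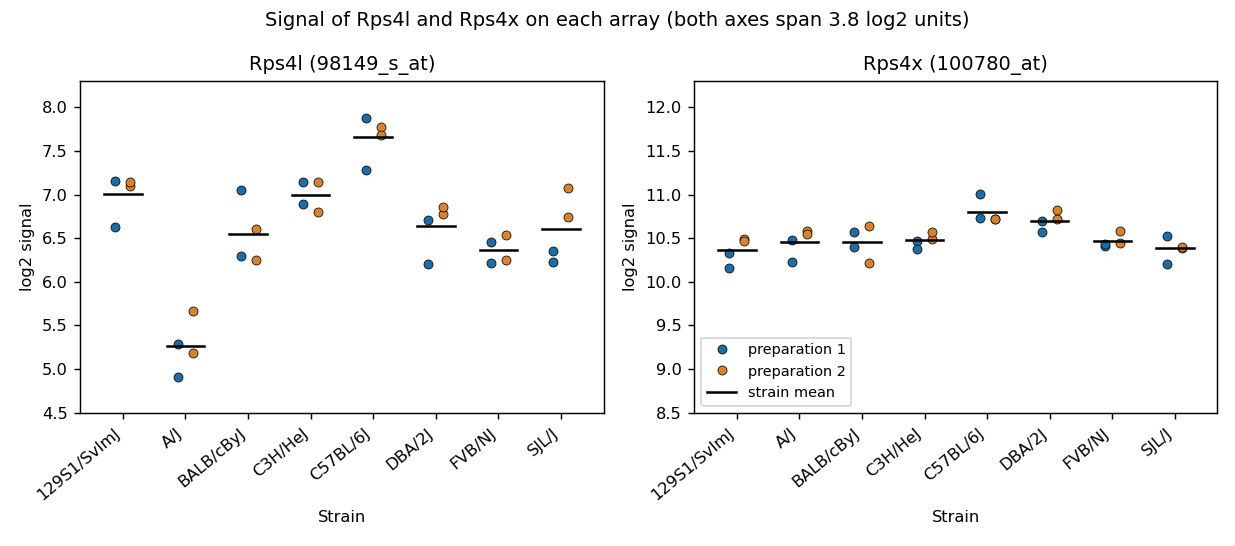
Log2 signal of Rps4l (left) and Rps4x (right) on each of the 4 arrays of each strain, coloured by cRNA preparation, with the strain mean as a bar; both vertical axes span the same number of log2 units. The 4 A/J arrays of Rps4l lie at 4.91 to 5.67, below all others, and the 4 C57BL/6J arrays at 7.29 to 7.88, above all others, while the strain means of Rps4x stay within 0.43.

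In order of the mean, Rps4l was lowest in A/J at 5.26 ± 0.23 (SD, n = 2 preparations). FVB/NJ had 6.36 ± 0.04, BALB/cByJ 6.55 ± 0.17, SJL/J 6.60 ± 0.43 and DBA/2J 6.64 ± 0.25. C3H/HeJ had 6.99 ± 0.03, _129S1/SvImJ_ had 7.004 ± 0.16, and C57BL/6J was highest at 7.66 ± 0.10. The highest and the lowest strain differed by 2.40, or 5.27-fold, and the F-test gave an adjusted p of 0.00082. With 64 added to every signal before the log, which compresses low values, the range was 1.37 (adjusted p = 0.001). Strain, with its own pool and cDNA, accounted for 83.9% of the variance of this probe set over the 32 arrays. The median over all tested probe sets was 6.73%. Strain and pool cannot be told apart here. A/J lay below the mean of the other 7 strains by 1.57 ± 0.18 (SE), a 2.97-fold difference (adjusted p = 0.00051). It was the single member called for A/J, where 0.537% of all tested probe sets were called. C57BL/6J lay above the mean of the others by 1.17 ± 0.18, or 2.25-fold (adjusted p = 0.0018), in a comparison that called 2.28% of all. Without preparation 1 of A/J the A/J difference was -1.40 with an adjusted p of 0.051, and without preparation 2 of C57BL/6J the C57BL/6J difference was 1.10 with 0.052.

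Of the 28 pairs of strains, 9 differed in Rps4l. In brackets are the adjusted p for Rps4l and the share of all tested probe sets called for that pair. A/J was in 6 of the 9. Its signal was 5.27-fold lower than in C57BL/6J (5.1e-05, 1.65%), 3.35-fold lower than in _129S1/SvImJ_ (0.0017, 0.657%) and 3.33-fold lower than in C3H/HeJ (0.0029, 0.483%). It was 2.60-fold lower than in DBA/2J (0.007, 1.38%), 2.53-fold lower than in SJL/J (0.015, 0.59%) and 2.45-fold lower than in BALB/cByJ (0.012, 1.69%). C57BL/6J was in 4 of the 9, and besides A/J its signal was 2.45-fold that of FVB/NJ (0.0089, 1.61%), 2.15-fold that of BALB/cByJ (0.013, 7.55%) and 2.08-fold that of SJL/J (0.037, 1.49%). None of the 7 pairs that are neighbours in the order passed. The nearest was A/J against FVB/NJ, at -1.10 ± 0.24 (SE) with an adjusted p of 0.057, or 0.006 with the preparation as a block. With that block 11 pairs passed.

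The second Rps4l probe set, 98148_at, had a mean log2 signal of 4.17 and was below the limit for testing. Its strain means ran from 3.63 ± 0.07 in C57BL/6J, the strain highest on 98149_s_at, to 4.77 ± 0.19 in SJL/J. The A/J mean was 3.72 ± 1.42. Over the 8 strain means the 2 probe sets correlated at r = 0.0648, so the strain order of 98149_s_at was not repeated at the signal of 98148_at.

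Rps4x, which encodes the S4 protein of the ribosome, varied much less. Its strongest probe set, 100780_at, gave 10.73, 11.01, 10.72 and 10.72 in C57BL/6J, and 10.57, 10.69, 10.72 and 10.82 in DBA/2J. In A/J, the strain lowest for Rps4l, it gave 10.48, 10.22, 10.59 and 10.55. The A/J arrays fell within the range of 10.16 to 10.64 that the 4 arrays each of _129S1/SvImJ_, BALB/cByJ, C3H/HeJ, FVB/NJ and SJL/J spanned. Strain means lay between 10.36 ± 0.17 in _129S1/SvImJ_ and 10.79 ± 0.11 in C57BL/6J, a range of 0.43 or 1.35-fold (F-test adjusted p = 0.36). The C57BL/6J difference from the rest was 0.32 ± 0.10 (SE), with an adjusted p of 0.15, or 0.039 with the preparation as a block. The strain means of Rps4x and Rps4l correlated at r = 0.425 over 8 strains and at 0.541 without A/J. A weak second Rps4x probe set, 161654_r_at, had a mean of 4.44 and a range of 1.61, from 3.57 ± 0.007 in SJL/J to 5.18 ± 0.78 in BALB/cByJ (F-test adjusted p = 0.52). The other 3 Rps4x probe sets, 162229_at, 162244_r_at and 162498_r_at, had means of 1.76, 2.24 and 4.04 and were not tested.

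Among 6742 other tested probe sets with 1 symbol, the strain means most like those of Rps4l belonged to Tomm34, a cytosolic factor of mitochondrial import, with r = 0.944 over 8 strains. Mlec, a lectin of the endoplasmic reticulum, followed at 0.913, then Znrf1, a ubiquitin ligase, at 0.882, Ube2r2, a ubiquitin-conjugating enzyme, at 0.872 and Asxl1, a chromatin regulator, at 0.861. The most opposite were Actn4, an actin cross-linker, at -0.952, Zfp398 at -0.952 and Cdc34 at -0.944. Their strain ranges were 0.39 to 1.13 against 2.40 for Rps4l, and none of the 8 passed the F-test (adjusted p from 0.50 to 0.99).

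Rpl13a encodes a protein of the large subunit that has also been studied as a translational silencer once released from the ribosome. Its probe set 92834_at gave 6.23, 6.41, 6.75 and 6.45 on the SJL/J arrays. In BALB/cByJ the arrays gave 6.90, 7.11, 6.69 and 7.05. In C57BL/6J they gave 7.48, 7.55, 7.74 and 7.69, and in DBA/2J 7.63, 7.66, 7.80 and 7.69. SJL/J was the lowest strain, touching the others at 1 BALB/cByJ array, and DBA/2J and C57BL/6J were the highest. The 16 arrays of _129S1/SvImJ_, A/J, C3H/HeJ and FVB/NJ lay at 6.94 to 7.56, overlapping those of BALB/cByJ and the lower ones of C57BL/6J. The strain means were 6.46 ± 0.20 in SJL/J and 7.70 ± 0.07 in DBA/2J, a range of 1.24 or 2.36-fold (F-test adjusted p = 0.030). SJL/J differed from the rest by -0.84 ± 0.16 (SE), 1.80-fold lower, with an adjusted p of 0.025 in a comparison that called 0.55% of all tested probe sets. Without preparation 1 of SJL/J the difference was -0.70 with an adjusted p of 0.83, and without preparation 2 it was -0.99 with 0.12. Array 4 of SJL/J, preparation 2 of DBA/2J and either preparation of FVB/NJ also ended this call when left out (adjusted p from 0.05 to 0.054), and the F-test call ended without array 4 of SJL/J or without either preparation of SJL/J, BALB/cByJ, C57BL/6J, DBA/2J or FVB/NJ (0.053 to 0.16).

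Rps28, a small protein of the small subunit, was read by 3 tested probe sets that gave different orders of the strains. On 98085_f_at the FVB/NJ arrays gave 11.29, 10.71, 10.75 and 10.74, the BALB/cByJ arrays 11.26, 10.85, 11.47 and 11.04, and the DBA/2J arrays 11.25, 11.09, 11.32 and 11.34. The A/J arrays gave 12.31, 12.26, 11.86 and 11.85, and those of C57BL/6J 12.07, 12.43, 11.87 and 11.89. FVB/NJ, BALB/cByJ and DBA/2J thus lay below A/J and C57BL/6J on every array. The means ran from 10.87 ± 0.18 in FVB/NJ to 12.07 ± 0.30 in A/J, a range of 1.20 or 2.29-fold (F-test adjusted p = 0.020). This call was lost without array 2 of FVB/NJ, at an adjusted p of 0.076, with that array counted in preparation 2, at 0.078, and when arrays were centred on their median, at 0.075. It was also lost without either preparation of FVB/NJ, preparation 1 of BALB/cByJ or preparation 1 of DBA/2J (0.053 to 0.10). The suffix of this probe set also marks probes that can read a family of similar transcripts.

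The probe set 100758_at, with a plain suffix, had its lowest Rps28 mean in BALB/cByJ, at 10.25 ± 0.23, and its highest in C57BL/6J, at 11.23 ± 0.21. The BALB/cByJ arrays gave 10.55, 10.28, 9.95 and 10.22. The C57BL/6J arrays gave 11.31, 11.45, 11.09 and 11.09, all above those of BALB/cByJ. BALB/cByJ differed from the rest by -0.54 ± 0.15 (SE), 1.45-fold lower (adjusted p = 0.038), in the comparison that called 8.92% of all tested probe sets. The F-test across strains gave an adjusted p of 0.069, and 0.0013 with the preparation as a block. The BALB/cByJ call was lost without array 2 or 3 of BALB/cByJ, array 1 of C57BL/6J or array 2 of FVB/NJ (adjusted p from 0.051 to 0.084). It was also lost, at 0.056, with array 2 of FVB/NJ counted in preparation 2. Leaving out either preparation of BALB/cByJ, DBA/2J or FVB/NJ ended it too. The difference was -0.38 without preparation 2 of BALB/cByJ, whose arrays share a day only with array 4 of FVB/NJ. DBA/2J, among the 3 lowest strains on 98085_f_at, was here at 10.95 ± 0.02, level with C3H/HeJ at 10.94 ± 0.38 and below C57BL/6J. Its arrays gave 10.70, 11.17, 10.94 and 10.98, so the arrays of preparation 1 lay further apart than that SD shows. The strain means of these 2 probe sets correlated at r = 0.604, the closest agreement among the pairs of tested probe sets of 1 gene. The third, 98086_r_at, had a mean of 6.04 and correlated at -0.258 and -0.061 with the others (F-test adjusted p = 0.82).

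**Figure D2:**
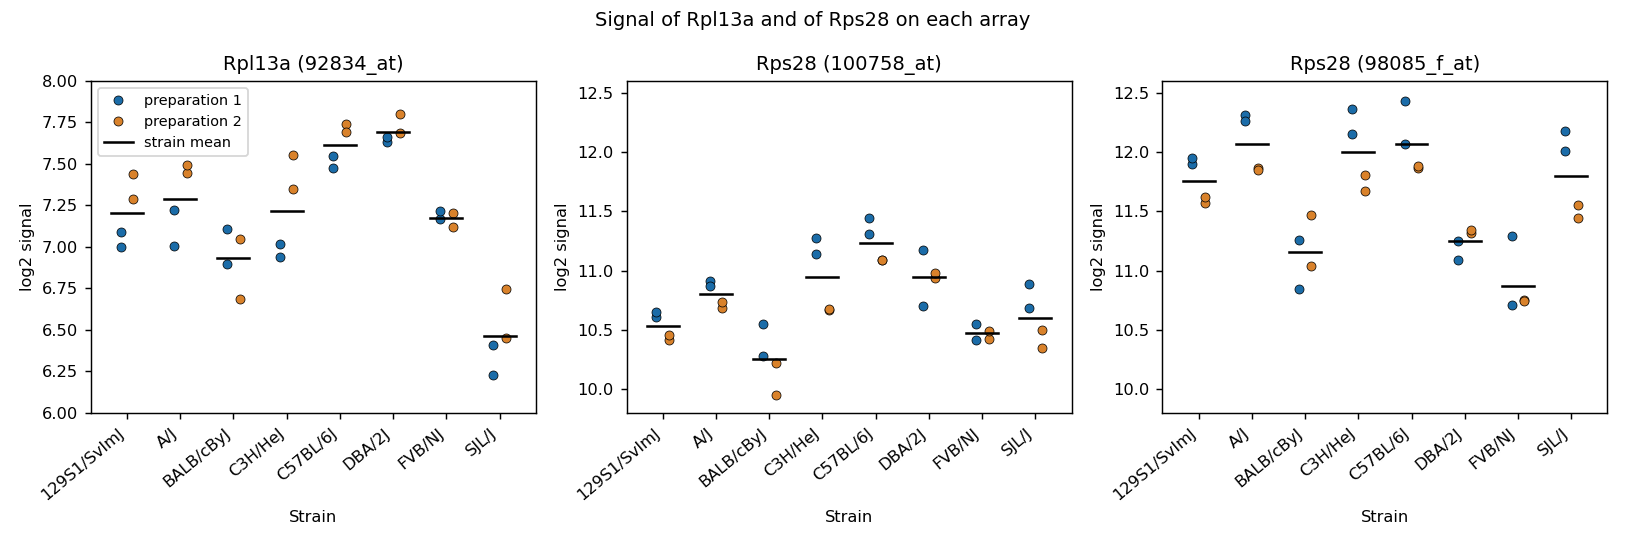
Log2 signal of Rpl13a (92834_at) and of Rps28 (100758_at and 98085_f_at) on each of the 4 arrays of each strain, coloured by preparation, with the strain mean as a bar. SJL/J has the lowest Rpl13a mean, at 6.46, and the position of DBA/2J among the strains differs between the Rps28 probe sets, with means of 10.95 and 11.25.

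Set against the rest strain by strain, 3 of the 33 members (9.09%) were called for at least 1 strain, against 12.1% of all tested probe sets. These were Rps4l for A/J and C57BL/6J, Rpl13a for SJL/J and Rps28 for BALB/cByJ. In _129S1/SvImJ_, C3H/HeJ, DBA/2J and FVB/NJ limma called 0 members, where 0.751, 0.577, 1.44 and 0.389% of all were called. At an unadjusted p under 0.05 the counts in those 4 strains were 1, 5, 8 and 1 of 33, where 5.26, 6.74, 9.90 and 5.41% of all passed. With the preparation as a block, 10 members were called in BALB/cByJ against 30.4% of all, and 7 in C57BL/6J against 6.63% of all. In C57BL/6J 6 of the 7 were higher, where 3.02% of all were called higher. They were Rpl13a, Rplp0, both stronger Rps28 probe sets, Rps4l and Rps4x, and Rps27 was lower, as were 3.61% of all. The 10 in BALB/cByJ were 5 higher and 5 lower, where 13.8 and 16.6% of all were called. Rpl19 161961_at, Rps24 93121_at, Rps27, Rps29 98523_at and Rpsa were higher, and Rpl10a 161327_f_at, Rpl22 92857_at, Rpl6 and both stronger Rps28 probe sets were lower. In the same blocked fit DBA/2J had 1 call, Rpl13a higher, against 4.27% of all. FVB/NJ had 1, Rps28 98085_f_at lower by 0.86, against 1.53%. A/J and SJL/J kept 1 call each, against 1.33 and 1.41%, and _129S1/SvImJ_ and C3H/HeJ had 0, against 1.84 and 1.61%.

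The remaining members with wide ranges were of low signal. Rpl19 161961_at ranged over 1.32, from 4.68 ± 0.22 in A/J to 6.002 ± 0.57 in BALB/cByJ. Rpl22 92856_at ranged over 1.29, from 4.58 ± 1.00 in _129S1/SvImJ_ to 5.86 ± 0.42 in BALB/cByJ. Rps24 93121_at ranged over 1.19, from 4.09 ± 0.59 in DBA/2J to 5.28 ± 0.36 in BALB/cByJ. All 3 were highest in BALB/cByJ, and none passed the F-test (adjusted p of 0.64, 0.70 and 0.59). Rps13 93027_r_at ranged over 1.13, from 5.23 ± 0.21 in DBA/2J to 6.36 ± 0.45 in FVB/NJ, with an adjusted p of 0.45.

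For Rpl19, Rpl22 and Rps24 a stronger probe set of the same gene gave a flatter profile. Rpl19 97483_at, at a mean of 11.29, ranged over 0.44, and its strain means correlated with those of 161961_at at r = 0.303. Rpl22 92857_at, at a mean of 7.10, ranged over 0.75 and was lowest in BALB/cByJ, at 6.67 ± 0.05, where 92856_at was highest. Its correlation with 92856_at, r = -0.579, was the lowest among the genes with 2 or more tested probe sets. Rps24 97696_r_at, at a mean of 11.95, ranged over 0.35, with r = 0.164.

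The narrowest ranges belonged to abundant members. Rpl8, at the peptidyl transferase centre of the large subunit, ranged over 0.34 or 1.26-fold, with 10.89 ± 0.07 in C57BL/6J and 10.55 ± 0.46 in BALB/cByJ. Rps24 97696_r_at ranged over 0.35 or 1.27-fold. Rps3, at the mRNA entry channel of the small subunit, ranged over 0.36 or 1.28-fold, from 10.58 ± 0.01 in _129S1/SvImJ_ to 10.93 ± 0.05 in C57BL/6J. Each of these ranges had a preparation SD of comparable size in at least 1 strain.

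Over the 33 tested probe sets the median range across strains was 0.56, or 1.48-fold, beside 0.68, or 1.60-fold, over all tested probe sets. A range of 2-fold or more was seen in 11 of 33 (33.3%) beside 22.2% of all. Split at a mean log2 signal of 9, a limit chosen after the values were seen, the members fell into 19 probe sets of 18 genes with high signal and 14 with lower signal. The 19 had a median range of 0.43, or 1.34-fold, and 1 of them reached 2-fold (5.26%). The 667 tested probe sets with a mean of 9 or more had 0.49 and 10.2%. They were not matched to the 19 in signal above that limit. The 14 had a median range of 1.13, or 2.19-fold, and 10 reached 2-fold (71.4%). All tested probe sets with a mean under 9 had 0.70 and 23.4%. The wide ranges were thus mostly in the weaker probe sets. Among the strong ones Rps28 98085_f_at reached 2-fold, and Rps28 100758_at, at 0.98 or 1.98-fold, fell just short of it.

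**Figure D3:**
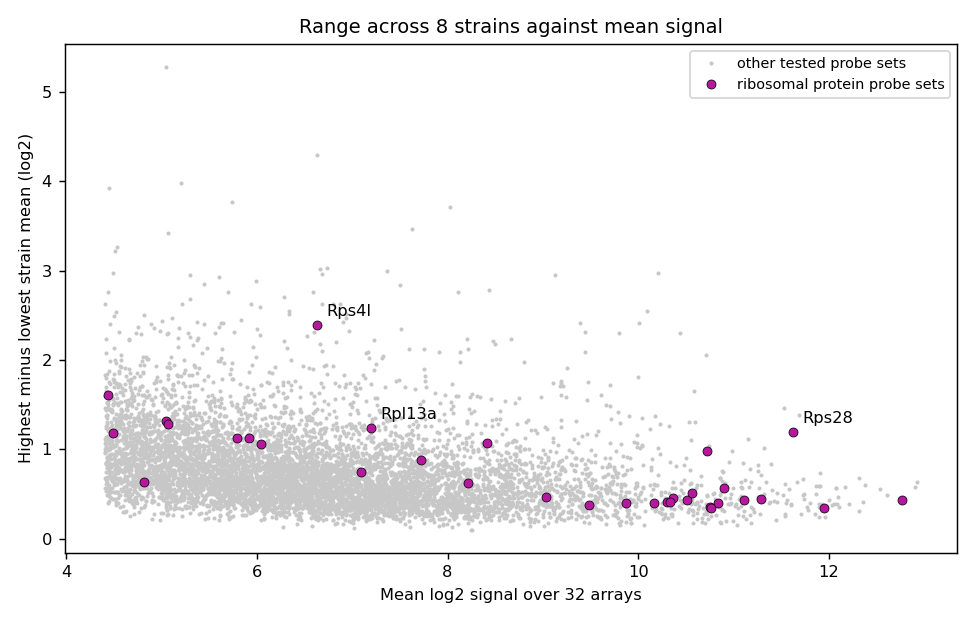
Difference between the highest and the lowest of the 8 strain means (log2, vertical) against the mean log2 signal over 32 arrays (horizontal) for each tested probe set, ribosomal protein probe sets in colour and the others in grey. Most ribosomal protein probe sets with a mean above 9 lie below a range of 0.6, and those of Rps28 at 0.98 and 1.20 stand above them. Rps4l has the widest range of the members at 2.40.

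The 19 high-signal probe sets had small differences that ran together across the strains. C57BL/6J had the highest mean in 11 of the 19, where 25.9% of all tested probe sets with a mean of 9 or more were highest in that strain. FVB/NJ had the lowest mean in 7 (16.5% of all with that signal) and BALB/cByJ in 6 (32.4%). Averaged over the 19, the deviation from the overall mean was 0.18 in C57BL/6J, 0.12 in C3H/HeJ, 0.09 in A/J and 0.04 in DBA/2J. It was -0.08 in BALB/cByJ, -0.09 in SJL/J, -0.10 in _129S1/SvImJ_ and -0.16 in FVB/NJ. In C57BL/6J 18 of the 19 lay above their own mean, and in FVB/NJ and in _129S1/SvImJ_ 1 did. The same average over all tested probe sets with that signal ran from -0.05 in FVB/NJ to 0.05 in C57BL/6J.

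The spread between arrays was as large as these averages. The 4 arrays of C57BL/6J lay between 0.08 and 0.31, and those of FVB/NJ between -0.22 and -0.03, without overlap. C57BL/6J gave 0.27 in preparation 1 and 0.09 in preparation 2. SJL/J gave 0.04 and -0.21, a change larger than the gap between most neighbouring strains. Every strain kept its sign when arrays were centred on their median or quantile-normalized, but the order moved. C57BL/6J had 0.29 and 13 of 19 highest means under median centring, against 0.13 and 6 under quantile normalization, where DBA/2J had 8. Median centring itself moved the median deviation of all tested probe sets from 0.002 to -0.13 in BALB/cByJ. In C57BL/6J it moved that median from -0.02 to 0.09, so the higher value of 0.29 there is not particular to the members.

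**Figure D4:**
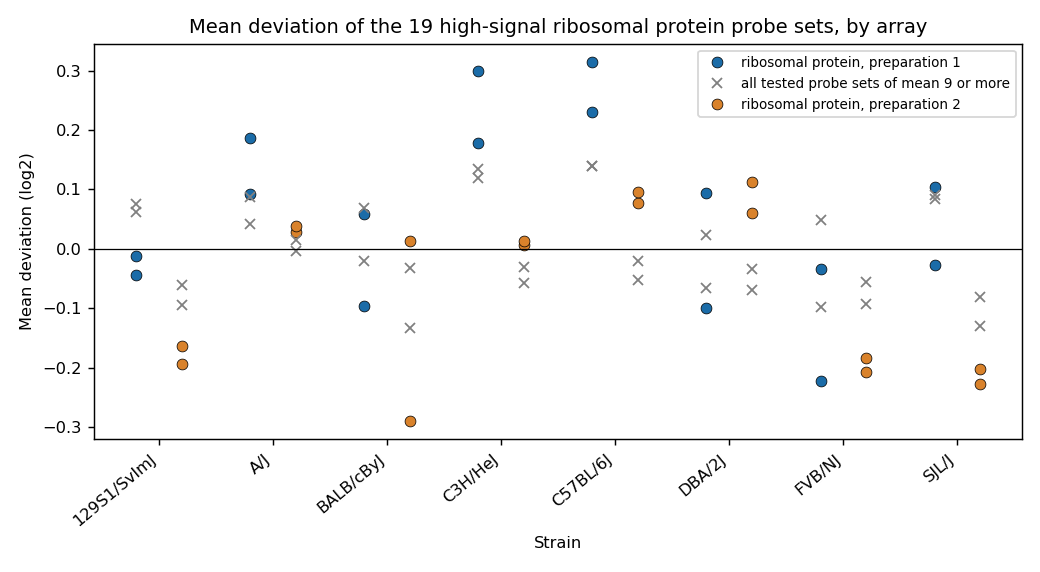
Mean deviation (log2) of the 19 high-signal ribosomal protein probe sets from their own means over 32 arrays, 1 point per array by strain and preparation, with crosses for all tested probe sets of mean 9 or more. The C57BL/6J arrays lie at 0.08 to 0.31 and the FVB/NJ arrays at -0.22 to -0.03, and in SJL/J and C3H/HeJ the preparations stand apart.

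Summed signals of cell type markers also varied between the strains. Of 5 neuronal markers of 6 listed, 4 passed the F-test, with sums from 6339 in DBA/2J and 6697 in C57BL/6J to 8331 in A/J. C57BL/6J had the highest sum of 5 interneuron markers of 5 (3377, other strains 2527 to 3041), of which 1 passed. It also had the highest sums of 4 astrocyte markers of 5 (3282, others 2347 to 2906), of 4 oligodendrocyte markers of 5 (3450, others 2535 to 3016) and of 6 microglial markers of 6 (931, others 691 to 840), but 0 of these passed the F-test. C3H/HeJ had the highest sum of 3 blood markers of 7 (1607, others 755 to 1131), of which 2 passed. It also had the highest sum of 3 choroid plexus markers of 4 (411), of which 1 passed and which was lowest in C57BL/6J (116). No marker sum was at 0. The log2 ratio of the 3′ to the 5′ actin control was highest in C57BL/6J, at 0.42, and lowest in C3H/HeJ, at 0.17. In C57BL/6J it was 0.68 on array 2 and 0.25 to 0.38 on the other arrays. For the Gapdh control the ratio was -0.26 in C57BL/6J, between -0.38 in C3H/HeJ and -0.23 in _129S1/SvImJ_. The part of these differences in the ribosomal protein levels was not tested.

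Individual high-signal members followed the others to different degrees. Over the 8 strain means, the 171 pairs among the 19 probe sets had a median r of 0.505, and 86.5% were above 0, beside 0.062 and 54.3% for all tested probe sets with that signal. All of these share the same 32 arrays. Rps3a1, of the small subunit, followed the mean of the other 18 most closely (r = 0.914), with arrays of 11.40, 11.61, 11.17 and 11.15 in C57BL/6J and of 10.78, 10.90, 10.96 and 11.00 in FVB/NJ. Its C57BL/6J arrays were all above those of FVB/NJ. Rpl7a followed at 0.878 and Rps28 100758_at at 0.847. Rpl41, the smallest ribosomal protein, followed at 0.380, Rpl37a at 0.285 and Rpsa at 0.046.

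Rplp0, the base of the large-subunit stalk and often a reference gene, followed at r = 0.642. It gave 10.90, 11.01, 10.85 and 10.82 in C57BL/6J, above every array of the other 7 strains. Its C57BL/6J mean was 10.89 ± 0.09 and its lowest mean was 10.38 ± 0.07 in FVB/NJ. The C57BL/6J difference from the rest was 0.38 ± 0.11 (SE), with an adjusted p of 0.094, or 0.023 with the preparation as a block. Rpsa, the small-subunit protein also known as the laminin receptor, was highest in BALB/cByJ at 9.26 ± 0.12 and lowest in DBA/2J at 8.79 ± 0.07. The F-test adjusted p was 0.42, and BALB/cByJ against the rest gave 0.11, or 0.034 with the block.

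**Figure D5:**
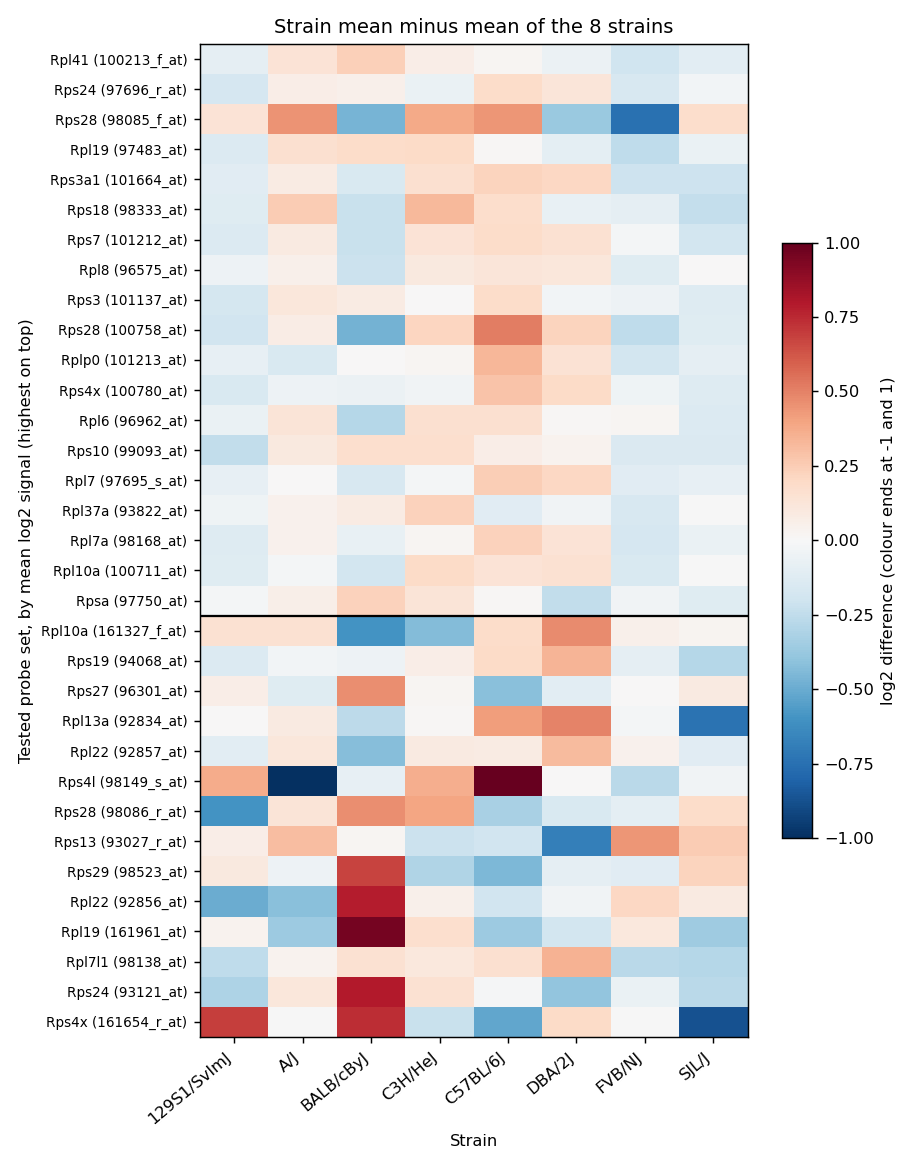
Strain mean minus the mean of the 8 strains (log2, colour ending at -1 and 1) for the 33 tested probe sets, ordered by mean signal, with a line at a mean of 9. Above the line C57BL/6J is above 0 in 18 of 19 rows and FVB/NJ in 1, and below it Rps4l has its lowest value in A/J and its highest in C57BL/6J.

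The 100 bases before the annotated starts of some members are shown as given by RefSeq for GRCm38.p6. Of the 35 genes, 28 had windows in the table, 37 in all, and Rps4l is among those named without one. Motifs were searched on both strands and were chosen with the results known. They were CCGGAAG, the core bound by ETS factors, AAGATGG, a core of YY1 sites, TATAAA, and the NRF1 motif. The windows shown are those of the 6 genes that followed the other strong members most closely. They are Rps3a1 (r = 0.914, chr3:86142669-86142768, minus strand), Rpl7a (0.878, chr2:26910707-26910806, plus), Rps28 (0.847, chr17:33824563-33824662, minus), Rpl10a (0.808, chr17:28328371-28328470 and chr17:28328465-28328564, plus), Rps18 (0.790, chr17:33955666-33955765, minus) and Rps7 (0.789, chr12:28635954-28636053, minus). Rpl13a (chr7:45128746-45128845, minus), called across strains, and Rps4x (chrX:102189392-102189491, minus), the relative of Rps4l, are shown beside them. All are written 5′ to 3′, with capitals marking a CCGGAAG match on either strand.
Rps3a1: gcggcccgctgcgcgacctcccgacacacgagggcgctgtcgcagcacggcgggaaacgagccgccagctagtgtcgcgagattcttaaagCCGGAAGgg
Rpl7a: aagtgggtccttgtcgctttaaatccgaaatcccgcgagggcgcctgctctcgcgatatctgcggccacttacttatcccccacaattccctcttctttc
Rps28: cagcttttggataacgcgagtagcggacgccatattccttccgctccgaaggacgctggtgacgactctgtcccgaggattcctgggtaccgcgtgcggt
Rpl10a, upstream start: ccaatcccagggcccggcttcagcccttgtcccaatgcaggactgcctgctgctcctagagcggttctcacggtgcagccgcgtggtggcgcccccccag
Rpl10a, downstream start: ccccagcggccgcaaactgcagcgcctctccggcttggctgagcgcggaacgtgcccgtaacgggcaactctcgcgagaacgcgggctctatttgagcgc
Rps18: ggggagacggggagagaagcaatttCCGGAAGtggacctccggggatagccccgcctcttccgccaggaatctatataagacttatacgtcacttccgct
Rps7: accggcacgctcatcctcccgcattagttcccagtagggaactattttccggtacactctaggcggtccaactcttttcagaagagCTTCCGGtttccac
Rpl13a: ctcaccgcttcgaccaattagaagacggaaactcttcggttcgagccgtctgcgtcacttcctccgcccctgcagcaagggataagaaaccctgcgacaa
Rps4x: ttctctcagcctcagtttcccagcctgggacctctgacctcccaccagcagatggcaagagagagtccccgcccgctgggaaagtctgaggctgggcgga
In these 100 bases CCGGAAG was found in 8 of the 37 member windows (21.6%), beside 4.52% of all 32851 windows of the same length. AAGATGG was found in 2 (5.41% beside 1.53%), TATAAA in 1 (2.70% beside 5.56%) and the NRF1 motif in 0 (beside 0.539%). In the whole windows of 300 bases, 250 of them before the start, CCGGAAG was found in 12 of 37 (32.4% beside 8.86%). There AAGATGG was found in 9 (24.3% beside 6.34%), TATAAA in 4 (10.8% beside 13.6%) and the NRF1 motif in 2 (5.41% beside 0.971%). In the 100 bases shown, Rps3a1, Rps18 and Rps7 hold a CCGGAAG match, and Rpl7a, Rps28, Rpl10a, Rpl13a and Rps4x hold none of the 4 motifs. Rpl41, which followed the others at 0.380, holds a CCGGAAG match in the same 100 bases. Rpl37a, at 0.285, and Rpsa, at 0.046, hold none. The part of these motifs in the strain profiles was not tested.

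Members whose paralogue was also on the array were set beside it. Rpl7, of the large subunit, had its highest mean in C57BL/6J, at 10.55 ± 0.18, and its lowest in BALB/cByJ, at 10.14 ± 0.10 (F-test adjusted p = 0.31). Its relative Rpl7l1 ran from 4.53 ± 0.52 in SJL/J to 5.17 ± 0.34 in DBA/2J (adjusted p = 0.79). Rps27 ran from 7.30 ± 0.08 in C57BL/6J to 8.18 ± 0.16 in BALB/cByJ (adjusted p = 0.31, or 0.032 with the block), against the direction of most strong members. Its relative Rps27l, at a mean of 3.08, and the pair Rpl39 and Rpl39l, at 3.30 and 2.58, were not tested.

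The members also differed between the cRNA preparations. Apart from array 2 of FVB/NJ, no preparation 1 array shared a day in its title with a preparation 2 array. Preparation and day therefore cannot be told apart. Preparation 2 differed from preparation 1 in 10 of 33 (30.3%), beside 37.5% of all tested probe sets. Of these, 9 were lower (27.3%, beside 11.9% of all) and 1 was higher, beside 25.6% of all. Among the tested probe sets with a mean of 9 or more, 32.8% of all and 31.6% of the members were lower. Rpl37a had the strongest change among the high-signal members, at -0.50 ± 0.07 (SE; adjusted p = 0.00037). Rps28 98086_r_at changed by -0.82 (adjusted p = 0.0014), and all 3 Rps28 probe sets were called lower, while Rpl6 was higher by 0.15 (adjusted p = 0.041). The count of 10 was 5 or 6 without array 2 of BALB/cByJ or of C57BL/6J, array 1 of FVB/NJ, or either preparation of _129S1/SvImJ_, A/J, C57BL/6J or SJL/J. The median change of the 19 was -0.10 with the deposited scaling, -0.22 with median centring and 0.07 with quantile normalization, so its direction depended on the scaling.

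Other genes of the translation machinery were taken from lists. The F-test called 4.58% of all tested probe sets. In limma's F-test the mitochondrial ribosomal proteins had 1 of 65 tested probe sets called, Mrpl27, at 8.41 ± 0.26 in DBA/2J and 7.30 ± 0.02 in C3H/HeJ (2.15-fold, adjusted p = 0.012). Their median range was 0.54, beside 0.56 for the cytosolic members. Initiation factors had 0 of 40 called, elongation and termination factors 0 of 13, and other mRNAs with a TOP tract 0 of 15. At an unadjusted p under 0.05 these 3 lists had 7, 1 and 2, where 15.7% of all probe sets passed. With the preparation as a block they had 7, 1 and 3 called and the mitochondrial list had 7, where 18.9% of all were called.

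Ribosome biogenesis had 1 of 33 called (3.03%, beside 4.58% of all). It was the snoRNP protein Nop10, at 9.27 ± 0.06 in SJL/J and 8.60 ± 0.07 in BALB/cByJ (adjusted p = 0.041). The mTOR and S6 kinase pathway had 1 of 14 called (7.14%). It was 1 of the 2 tested probe sets of the kinase Pdpk1, at 7.24 ± 0.45 in _129S1/SvImJ_ and 5.34 ± 0.37 in DBA/2J (adjusted p = 0.041). The other Pdpk1 probe set was not called. Of the non-coding hosts of small nucleolar RNAs, 3 of 7 probe sets were called (42.9%, beside 4.58% of all). Like the others, this list was chosen with earlier results of these data known. Gas5, itself a TOP transcript, was at 9.59 ± 0.06 in C57BL/6J and 5.87 ± 0.22 in _129S1/SvImJ_ (adjusted p = 7.7e-09). Snhg6 was at 7.78 ± 0.28 in C57BL/6J and 5.02 ± 0.79 in C3H/HeJ (adjusted p = 0.0036). Snhg11 was at 8.24 ± 0.64 in _129S1/SvImJ_ and 6.22 ± 0.24 in DBA/2J (adjusted p = 0.0083). At an unadjusted F-test p under 0.05 the biogenesis, mTOR and host lists had 3, 2 and 4, where 15.7% of all passed. With the preparation as a block they had 2, 1 and 4 called, where 18.9% of all were called.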

How the data were processed

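Hippocampal RNA of 8 strains was measured on 32 arrays. The authors deposited a linear intensity for each probe set on each array. MAS5 produced it, per the submitters' processing notes. The sources used here give neither its version nor the scaling target. Each array's mean intensity, trimmed by 2% at each end, was 100.05 to 100.07, so no further scaling was applied. Strain and array number came from the sample titles.

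After removal of 66 controls from the 12488 probe sets, intensities were floored at 1 (2.14% of values) and log2-transformed. Testing was limited to the brightest 60% by mean (7453, mean signal of 21.3 or more). The 2 arrays of a preparation were averaged, giving 16 values, and limma 3.58.1 in R 4.3.3 was fitted over all 7453 (lmFit, eBayes with trend, 8 residual degrees of freedom). Tests were an F-test across strains, each strain against the rest, the 28 pairs, and preparation 2 against 1 with strain as a block. Benjamini-Hochberg adjustment ran within each comparison, at a threshold of 0.05. P-values measure the spread of technical preparations of 1 pool per strain.

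The series design states that array numbers mark the preparation. Preparation differences correlated in all 28 strain pairs, at r = 0.109 to 0.557 (median 0.385), so a fit with the preparation as a block is given where it changes a call. Gene names came from the platform annotation (10855 probe sets with 1 symbol, 396 with several). Suffixes other than a plain _at mark probe sets that can read several transcripts; 24 of the 33 tested members are plain. On simulated data with the means of these arrays, the A/J contrast recovered 62% of probe sets changed by 1 and 92% of those changed by 2 on the log2 scale, and the F-test 20% and 76%.

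The members and lists were chosen with earlier results of these data known. Named members are every probe set of Rps4l and Rps4x, those past the F-test or a strain test, the 8 widest and 3 narrowest ranges, the probe sets of 1 gene that agree best and least, Rplp0 and Rpsa, and paralogue pairs on the array. From the other lists, up to 4 genes past the F-test are named. For likeness to Rps4l, the 5 highest and 3 lowest Pearson correlations are named. Rps3a1, Rpl7a, Rpl41, Rpl37a, Rpl6, Rpl10a, Rps29, Rps18 and Rps7 fall outside this rule and were named after their values were seen. Alternatives tried were the scaling, filter, offset, trend, preparation block, random block, plain suffixes and leaving out arrays and preparations.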

Additional observations from a re-analysis of the deposited data

Results flagged for a closer look

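In 48 groups of 4 arrays of 1 strain, covering the key members, 3 had an array far from the other 3. Chance alone gives about 1 in 20 groups, and 3 of 48 is near that share. Rps4l 98149_s_at was 6.62 on array 2 of _129S1/SvImJ_, where the other arrays gave 7.09 to 7.16. Rps4x 100780_at was 11.01 on array 2 of C57BL/6J, where the others gave 10.72 to 10.73. Rps28 98085_f_at was 11.29 on array 1 of FVB/NJ, where the others gave 10.71 to 10.75.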

How the results depend on the processing

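The strain range of Rps4l kept its call in all 59 alternatives (adjusted p 1.3e-06 to 0.009; 2.23 to 2.56 when arrays or preparations were left out, 1.999 with an offset of 16 and 1.37 with 64, where the A/J difference was -0.81), and in 60 of 60 settings, the deposited one included, A/J was lowest and C57BL/6J highest. The count of 3 members past the F-test became 8 with the preparation block, 6 with 32 arrays and a random block, 1 without the trend, 1 with plain suffixes alone, 1 without all BALB/cByJ arrays (chosen after seeing the data), and 1 to 5 when an array or a preparation was left out. The 4 strain calls became 21 with the block, 15 with the random block, 12 with quantile normalization, 9 with median centring, 7 with the 40% filter, 7 with an offset of 64, 2 without the trend and 2 with plain suffixes; leaving out arrays or preparations gave 2 to 11 (7 to 11 without array 1, 3 or 4 of BALB/cByJ, array 1 of FVB/NJ or either preparation of C3H/HeJ, 2 without preparation 2 of DBA/2J or FVB/NJ). The 10 preparation calls became 6 with quantile normalization and 5 to 11 when an array or preparation was left out. Rpl13a lost its F-test call in 13 of 59 alternatives (adjusted p up to 0.16) and its SJL/J call in 7 (up to 0.83). Rps28 100758_at lost its BALB/cByJ call in 12 of 58 (up to 0.24) and 98085_f_at its F-test call in 9 of 59 (up to 0.10). The cause was not tested. None of these named differences changed sign, but the median preparation change of the 19 strong members did under quantile normalization, as given above. Arrays limit precision by their number, and 16 members were too dim to test.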
